A study of Mus musculus and Homo sapiens with 30 samples.

Results

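The genes described here encode the protein components of the cytosolic ribosome in 2 mouse mammary cell lines exposed to medium conditioned by fat cells. They were taken from the mouse count table by symbol: Rpl or Rps followed by a number, with a single a or x allowed, together with Rplp0 to Rplp2 and Rpsa. The rule found 76 genes among 56980 gene identifiers, 46 of the large subunit and 30 of the small subunit. It used no measured value, and it leaves out a few ribosomal genes with other names or suffixes, such as Rps3a1, Fau and Rack1.

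E0771 is a mouse mammary tumour line and NMuMG a line from mouse mammary gland epithelium, and the labels give both the cell type breast cancer. After 36 h of growth, the cells of each line spent 16 h in 1 of 3 media: standard growth medium (control), or a mixture of 50% standard medium and 50% secretome of inguinal adipocytes, lean or obese. Standard medium was DMEM with fetal bovine serum, and for NMuMG also glucose and insulin. Each of the 6 groups has 3 libraries, poly(A) RNA was sequenced, and nothing in the labels says that replicates came from separate cultures, so p-values measure the spread between these libraries, which may be technical.

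A ribosome carries 1 set of proteins on ribosomal RNA, and the cell makes these proteins in matched amounts from separate genes on many chromosomes. The mRNAs of vertebrate ribosomal proteins start with a C followed by a run of pyrimidines, the 5′ terminal oligopyrimidine (TOP) tract, through which mTORC1 and the RNA-binding protein LARP1 set their translation and stability. Growth signals and nutrients act on this class of mRNA as a group, and ribosome supply is one of the largest costs of a growing cell.

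Such a run was found at only part of the annotated starts. RefSeq promoter entries (GRCm38.p6, matched by symbol) were found for 56 of the 76 genes, and 27 of them (48.2%) had a pyrimidine run of at least 5 bases opening with C within 5 bases of the annotated start, against 21.1% of the 26962 other genes in that table. The windows below run from 10 bases before to 20 bases after the annotated start, 5′ to 3′ on the gene's strand, with the pyrimidine run in capitals. Those printed first are genes with such a run whose values are given later in the text. They are the steep E0771 responders Rps9 and Rpl13a, the leading NMuMG responder Rpl14, the weak responder Rps24, and the well-studied Rps6, Rpl38, Rplp2 and Rpl35a.

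Rps9, chr7:3704031-3704060, plus strand: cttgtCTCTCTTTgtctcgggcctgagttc

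Rpl13a, chr7:45128726-45128755, minus strand: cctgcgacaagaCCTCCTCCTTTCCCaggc

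Rpl14, chr9:120571507-120571536, plus strand: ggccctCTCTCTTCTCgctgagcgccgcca

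Rps24, chr14:24490668-24490697, plus strand: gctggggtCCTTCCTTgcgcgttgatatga

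Rps6, chr4:86857348-86857377, minus strand: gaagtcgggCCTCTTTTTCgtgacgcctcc

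Rpl38, chr11:114668570-114668599, plus strand: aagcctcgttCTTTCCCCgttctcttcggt

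Rplp2, chr7:141447641-141447670, plus strand: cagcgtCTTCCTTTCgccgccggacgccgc

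Rpl35a, chr16:33056472-33056501, plus strand: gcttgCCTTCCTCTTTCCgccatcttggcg

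Rps24 and Rpl35a have other annotated starts (1 and 2) without such a run, and only the start with one is printed. For comparison, the annotated starts of Rplp0 and Rpl41 had no such run in the same position, and an annotated start need not be the start used in these cells.

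Rplp0, chr5:115559457-115559486, plus strand: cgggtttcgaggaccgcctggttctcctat

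Rpl41, chr10:128549149-128549178, minus strand: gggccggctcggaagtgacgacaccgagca

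Within the 300 bases of each entry, the ETS-type motif CCGGAAG on either strand was in 23 of the 56 genes (41.1%) and in 9.87% of the others. The YY1-type motif AAGATGGC, on either strand, was in 5 of the 56 genes (8.93%) and in 3.17% of the others. The 6 letters CTTTCC on the sense strand of the 30-base start window, which fall inside many of the pyrimidine runs, were in 16.1% of the 56 genes and 1.49% of the others.

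The 18 libraries held 22929035 to 31094119 counts, and all 76 genes passed the filter on low counts in both lines. Genes tested numbered 13813 in E0771, 15014 in NMuMG and 16529 in the joint fit. Of 8 epithelial markers, 7 exceeded 3 counts in a library in each NMuMG group, and 2 or 4 did in each E0771 group. In NMuMG the 8 summed to 6832 to 8186 CPM (counts scaled to a common library total). Epcam and Cldn4 were low there, at group means of 1.9 to 2.4 and 0.92 to 2.2 CPM. In E0771 the sum was 229 to 258 CPM and nearly all of it was Krt8, with Cdh1 at or below 8 counts a library. Adipocyte markers summed to at most 2.22 CPM and leukocyte markers to at most 5.77 CPM. Replicates of a group differed by more than counting noise, with a chi-square of 2.27 to 8.34 per degree of freedom over genes. Both extremes were in the E0771 lean group, the lowest between replicates 1 and 2 and the highest between replicates 1 and 3.

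Together the 76 genes took 6.07% ± 0.252 (SD, n = 3) of all counts in E0771 control libraries, 6.07% ± 0.0697 with obese secretome and 5.01% ± 0.0639 with lean secretome. The control libraries stood at 5.82%, 6.06% and 6.32%, the obese at 5.98%, 6.11% and 6.10%, and the lean at 5.01%, 5.07% and 4.95%. All lean libraries lay below all others, and the control libraries spread more widely than the other groups. In NMuMG the shares were 4.70% ± 0.0852 in control medium, 4.78% ± 0.0758 with obese and 4.24% ± 0.0515 with lean secretome. Its control libraries stood at 4.73%, 4.77% and 4.61%, the obese at 4.72%, 4.76% and 4.87%, and the lean at 4.22%, 4.30% and 4.20%. Again the lean libraries were the lowest, and control and obese overlapped. As these are bulk samples, fewer cells of a type and less RNA per cell cannot be told apart. No p-value is given for these sums.

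**Figure D1:**
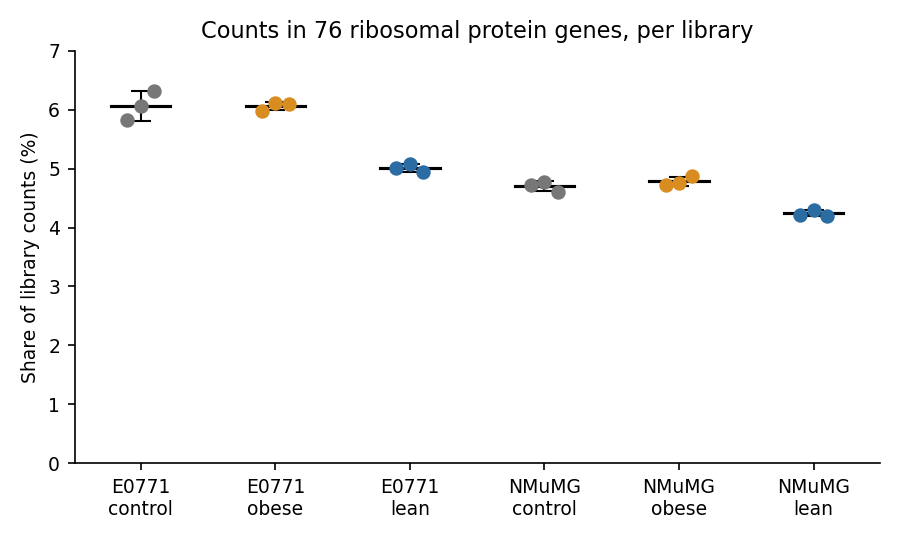
Counts in the 76 ribosomal protein genes as a percent of all counts (vertical axis, from 0) in each of the 18 libraries (points), by cell line and medium; horizontal lines are group means and bars the SD (n = 3). The lean libraries are the lowest of each line, at 4.95% to 5.07% in E0771 and 4.20% to 4.30% in NMuMG.

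In E0771 cells every one of the 76 genes was lower with lean than with obese secretome at an adjusted p under 0.05, where 26.9% of all genes tested were called lower and 25.8% higher. The median of the 76 log2 fold changes was -0.27, a median decrease of 17.1%, and the range was -0.61 to -0.10, while the median over all genes tested was 0.00. The 46 large subunit genes had a median of -0.27 and the 30 small subunit genes one of -0.29. In all 76 genes the 3 lean libraries lay below the 3 obese libraries after scaling, a separation found in 30.2% of all genes tested. These tests used edgeR's quasi-likelihood test with Benjamini-Hochberg adjustment over all genes, as do the adjusted p-values that follow.

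The decrease was not of one size. The SD of the 76 log2 fold changes was 0.09 in E0771, against a median standard error of 0.04. Rps20, a protein of the small subunit head, stood at 401, 421 and 437 CPM in control medium, at 401, 412 and 419 CPM with obese and at 272, 279 and 262 CPM with lean secretome. Its lean libraries were far below the other 6, which overlapped each other. Against obese secretome it fell by 0.61 on the log2 scale (SE 0.04, adjusted p = 1.13e-11), a decrease of 34.3%.

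Rps9, a small subunit protein that binds ribosomal RNA early in assembly, stood at 657, 699.6 and 725 CPM in control medium, 681, 668 and 681 CPM with obese and 468, 485 and 427 CPM with lean secretome. The lean values were again the lowest without overlap, and Rps9 fell by 0.56 on the log2 scale (SE 0.04, adjusted p = 4.59e-10). Rpl3, a large subunit protein that reaches towards the peptidyl transferase centre, stood at 1313, 1370.5 and 1415 CPM in control medium, 1308, 1384 and 1344 CPM with obese and 964, 974 and 863 CPM with lean secretome. Lean replicate 3 was the lowest of its group in both Rps9 and Rpl3, and Rpl3 fell by 0.53 on the log2 scale (SE 0.04, adjusted p = 9.93e-10).

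Rpl13a, known for its part in interferon-induced translational control as well as in the ribosome, was at 309, 312 and 310.2 CPM with obese and 236, 236 and 229 CPM with lean secretome, and fell by 0.41 on the log2 scale (SE 0.04, adjusted p = 9.93e-10). At the other end was Rpl24, a large subunit protein at the interface with the small subunit. It stood at 142, 148 and 147 CPM with obese and 142, 131 and 136 CPM with lean secretome, groups that touch at their edges, and fell by 0.10 on the log2 scale (SE 0.04, adjusted p = 0.0404). That call was lost in 8 of the other settings tried at the same threshold, which include leaving out lean replicate 2 (adjusted p = 0.183).

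**Figure D2:**
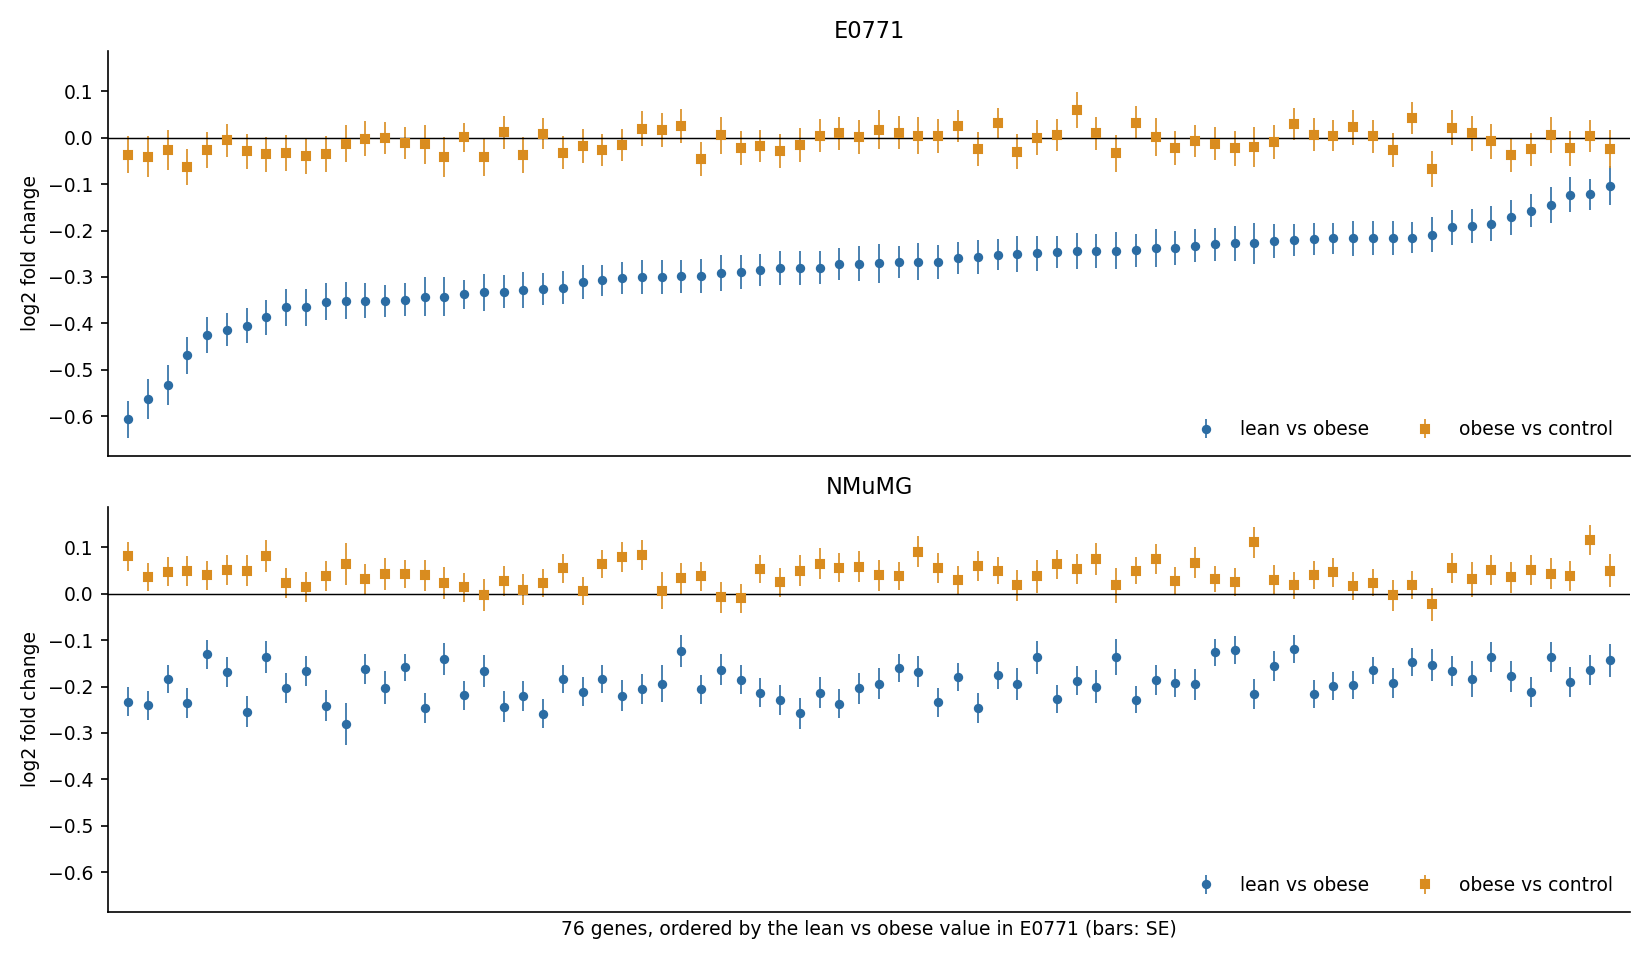
Log2 fold changes (vertical axis) of the 76 genes, ordered by the lean against obese value in E0771, for lean against obese (circles) and obese against control (squares) in each line; bars are standard errors. All circles lie below 0 in both lines, from -0.61 to -0.10 in the upper panel and from -0.28 to -0.12 in the lower, while the squares lie near 0.

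Genes with particular roles moved within this range in E0771. Of the P-stalk, which recruits elongation factors, Rplp0 fell by 0.23 on the log2 scale (SE 0.04, adjusted p = 7.74e-06) and its partners Rplp1 and Rplp2 had values of -0.23 (adjusted p = 1.74e-05) and -0.17 (adjusted p = 0.000349). Rplp0, among the genes with the most counts, stood at 2534, 2625 and 2614 CPM with obese and 2183, 2243 and 2231 CPM with lean secretome, without overlap. Rpl5 and Rpl11, which form the particle that restrains Mdm2 when ribosome assembly fails, had values of -0.22 (adjusted p = 8.6e-06) and -0.28 (adjusted p = 3.92e-07).

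Rps6, the substrate of the S6 kinases downstream of mTORC1, stood at 565, 584 and 581 CPM with obese and 465, 483 and 463 CPM with lean secretome and fell by 0.30 on the log2 scale (SE 0.04, adjusted p = 2.53e-07). Its lean libraries were all below its obese libraries. Rps19, the gene most often mutated in Diamond-Blackfan anaemia, and Rps24, another gene of that disease, were among the smaller changes, at -0.18 (adjusted p = 0.000181) and -0.12 (adjusted p = 0.00376). Rps27a, made as a fusion with ubiquitin, had a value of -0.23 (adjusted p = 5.02e-06), and Rpsa, the laminin receptor precursor, one of -0.22 (adjusted p = 1.82e-05).

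Rps3, which lines the mRNA entry channel and also acts in DNA repair, changed by -0.22 (adjusted p = 1.08e-05), and Rps4x, encoded on the X chromosome, by -0.26 (adjusted p = 7.78e-07). Rpl10, which completes the large subunit late in assembly, changed by -0.27 (adjusted p = 6.17e-07), Rpl38, linked to translation of Hox mRNAs, by -0.25 (adjusted p = 5.99e-06), and the short proteins Rpl39 and Rpl41 by -0.24 (adjusted p = 1.63e-05) and -0.23 (adjusted p = 0.000138). All of these were decreases. Rps2, Rpl4 and Rpl13, with Rplp0 and Rpsa the genes with the most counts, changed by -0.25, -0.35 and -0.34. Rpl35a, Rps10 and Rpl38, among those with the fewest counts, changed by -0.19, -0.30 and -0.25.

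Against control medium the lean secretome gave similar values in E0771. All 76 genes were lower, where 29.0% of all genes tested were, with a median log2 fold change of -0.28 and a range of -0.64 to -0.12. Rps20 fell by 0.64 on the log2 scale (SE 0.04, adjusted p = 2.54e-12), Rps9 fell by 0.60 on the log2 scale (SE 0.04, adjusted p = 9.62e-11) and Rpl3 fell by 0.56 on the log2 scale (SE 0.04, adjusted p = 3.17e-10). The 2 comparisons share the lean libraries, so one is no independent support for the other. The secretome media also held less standard medium, which the comparison with control medium does not separate from what adipocytes released.

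With obese secretome no gene of the 76 differed from control in E0771 at an adjusted p under 0.05, by edgeR or by DESeq2, where 2.61% of all genes tested did by edgeR. None had an unadjusted p under 0.05 by either tool. The median was -0.01, the range -0.07 to 0.06, and 32 values were positive and 44 negative. Leaving out control replicate 1 moved the median to -0.04, with 4 values positive and 72 negative, and leaving out control replicate 3 moved it to 0.03, with 71 positive and 5 negative, so no direction can be given. A difference smaller than the spread of the control libraries was not detectable here.

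Part of another marker list moved with the medium in E0771. The 6 fibroblast markers, of which Col1a1, Col3a1 and Pdgfra were well detected, summed to 872 to 977 CPM in control medium, 641 to 868 CPM with obese and 333 to 371 CPM with lean secretome. By group, 4 or 5 of the 6 exceeded 3 counts in a library. Col1a2 was low, at 0.26 CPM in control, 0.24 with obese and 0.10 with lean secretome, and Dcn and Lum were at or near 0. Col1a1 stood at 684 ± 42.9 CPM in control, 523 ± 97.9 with obese and 204 ± 14.5 with lean secretome (SD, n = 3). Col3a1 was at 129 ± 12.9 CPM in control, 125 ± 14.0 with obese and 45.2 ± 6.4 with lean secretome. Pdgfra moved less, at 117 ± 2.05, 116 ± 3.96 and 102 ± 2.18 CPM in the same order. The part of these differences in the ribosomal protein result was not tested.

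In NMuMG cells, too, all 76 genes were lower with lean than with obese secretome, where 17.4% of all genes tested were called lower and 17.6% higher. The median log2 fold change was -0.19, a median decrease of 12.5%, and the range was -0.28 to -0.12. The values were more even than in E0771, with an SD of 0.04 over the 76 genes against a median standard error of 0.03. All 76 genes had their 3 lean libraries below their 3 obese libraries, a separation found in 22.5% of all genes tested.

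Rpl29, a small basic protein of the large subunit, stood at 95.8, 98.4 and 92.9 CPM in control medium, 92.5, 105 and 99.3 CPM with obese and 82.6, 86.1 and 77.7 CPM with lean secretome. Its lean libraries were the lowest, and against obese it fell by 0.28 on the log2 scale (SE 0.05, adjusted p = 6.57e-06). Rpl21 stood at 443, 445 and 437 CPM in control medium, 433, 444 and 454 CPM with obese and 376, 372 and 374 CPM with lean secretome. The lean libraries lay close together below the other 6, and Rpl21 fell by 0.26 on the log2 scale (SE 0.03, adjusted p = 3.66e-08).

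Rpl14, whose start window is shown above, stood at 704, 694 and 671 CPM in control medium, 693, 701 and 724 CPM with obese and 591, 619.9 and 577 CPM with lean secretome. The lean libraries did not overlap the others, and it fell by 0.26 on the log2 scale (SE 0.03, adjusted p = 1.09e-07). Of the E0771 leaders, Rps20 had a value of -0.23 (adjusted p = 3.35e-07) in NMuMG, Rps9 -0.24 (adjusted p = 8.94e-08) and Rpl3 -0.18 (adjusted p = 1.19e-05). The P-stalk genes Rplp0, Rplp1 and Rplp2 changed by -0.13, -0.12 and -0.18, Rpl5 and Rpl11 by -0.20 and -0.21, and Rps6 by -0.20, all with adjusted p-values at or below 0.00152. Rps19, Rpl38 and Rpl39 changed by -0.14 (adjusted p = 0.00103), -0.14 (adjusted p = 0.0026) and -0.14 (adjusted p = 0.00458). The call of Rpl39 was lost without NMuMG obese replicate 1 (adjusted p = 0.0587).

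Against control medium 73 of the 76 genes were lower in NMuMG with lean secretome, where 19.1% of all genes tested were called lower, and the median was -0.15. Rpl21 fell by 0.24 on the log2 scale (SE 0.03, adjusted p = 1.52e-07), Rpl29 fell by 0.22 on the log2 scale (SE 0.04, adjusted p = 0.00019) and Rpl23a, which lies at the polypeptide exit, fell by 0.22 on the log2 scale (SE 0.03, adjusted p = 2.05e-06). The 3 genes without a call were Rps24 at -0.05 (adjusted p = 0.244), Rpl22 at -0.05 (adjusted p = 0.225) and Rpl17 at -0.08 (adjusted p = 0.0664). Rpl22 and Rpl17 are named here after their values were seen.

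With obese secretome 2 of the 76 genes were higher than in control medium in NMuMG, where 2.34% of all genes tested were called higher. The count is near that share and does not set the 76 genes apart. Rps24 stood at 519.8, 511 and 534 CPM in control and 558, 545 and 575 CPM with obese secretome, without overlap, a log2 difference of 0.12 (SE 0.03, adjusted p = 0.0255). Rpl41, the shortest ribosomal protein, stood at 632, 647 and 629.6 CPM in control and 660.0, 672 and 706 CPM with obese secretome, again without overlap, a log2 difference of 0.11 (SE 0.03, adjusted p = 0.0396). Both calls were lost when library totals alone set the scale, and either or both were lost without control replicate 1, 2 or 3, without lean replicate 1, and without obese replicate 1 or 3 (0 or 1 call left). Over the 76 genes the median was 0.04 and 71 values were positive, or 63 without control replicate 3, and all share the same libraries. Of all 15014 genes tested 7525 were positive. Of 83 ribosome biogenesis factors, described below, 79 were positive and 4 negative, so the shift is not particular to the 76. Of the 76, 11 genes had an unadjusted p under 0.05, all higher, but the share of all genes under that threshold was not computed.

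In NMuMG the fibroblast markers summed to at most 6.29 CPM. Epithelial markers summed to 7213 to 7632 CPM in control medium, 6832 to 7124 CPM with obese and 7907 to 8186 CPM with lean secretome. Krt8 and Krt18, which held most of that sum, were higher with lean than with obese by 0.20 and 0.19 on the log2 scale. Mean CPM was also higher with lean for Cdh1, Krt19 and the low Epcam and Cldn4. Krt7 went the other way, at 107.7 ± 4.3 CPM with lean and 113.4 ± 5.5 CPM with obese secretome (SD), ranges that overlap. Among adipocyte markers, which summed to at most 2.22 CPM, only Cidec differed visibly, at 2.02 CPM with lean and 0.63 CPM with obese secretome, while the other 7 genes were at or near 0 in both. The part of these lists in the ribosomal protein result was not tested.

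The fall was larger in E0771 for part of the genes. For lean against obese, 17 of the 76 genes differed between lines by an interaction test over all 18 libraries, all with the smaller decrease in NMuMG, where 15.5% of all genes tested were called in that direction. For lean against control the count was 26, all in the same direction, where 15.1% of all genes tested were. The difference (NMuMG minus E0771) for lean against obese was 0.36 (SE 0.05, adjusted p = 2.91e-07) for Rps20, 0.33 (SE 0.05, adjusted p = 3.38e-06) for Rpl3 and 0.31 (SE 0.05, adjusted p = 1.5e-05) for Rps9. For lean against control it was 0.46, 0.40 and 0.37. Of the genes named above, Rpl13a and Rpl4 were called in both comparisons as well, and Rplp0, Rplp1 and Rps6 against control alone, calls that were each lost without E0771 control replicate 3 and without some other single libraries. Whether the 2 comparisons differ for them was not tested. Others called in lean against obese, named here after their values were seen, include Rpl10a, Rpl22, Rps21 and Rps26, whose calls were lost in no other setting tried at the same threshold. Rps15 and Rps23 lost the call with the replicate block and on leaving out most single libraries, and Rpl27a, Rpl36a, Rpl37 and Rps28 lost it on leaving out 1 or more, among them E0771 obese replicates 2 and 3 for all but Rpl27a and NMuMG obese replicate 2 for Rpl27a.

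The count of these differences moved with the scaling, and the cause of that was not tested. With scaling factors computed without the 76 genes it was 37 for lean against obese and 49 for lean against control. Calls over all 16529 genes tested moved as well. Those higher went from 2554 to 3081 for lean against obese and from 2500 to 3005 for lean against control. Those lower went from 3102 to 2542 and from 3210 to 2645. Without E0771 control replicate 1 the count for lean against control was 40 of the 76, where 2400 of all 16889 genes tested were called higher. For obese against control no gene differed between lines by edgeR or DESeq2, where 1.69% of all genes tested did by edgeR. At an unadjusted p under 0.05 there were 4 of the 76 genes by edgeR and 3 by DESeq2, all with a positive difference (NMuMG minus E0771). The share of all genes tested under that threshold was not computed, so neither these counts nor their direction set the 76 apart.

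**Figure D3:**
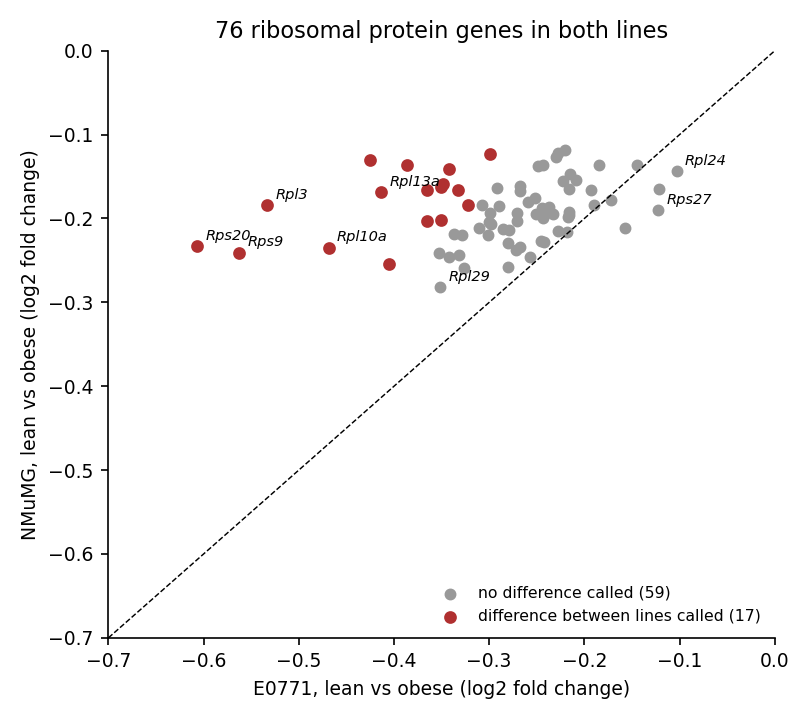
Log2 fold change of each of the 76 genes for lean against obese secretome in E0771 (horizontal axis) and NMuMG (vertical axis); the dashed line marks equal values and darker points the 17 genes with a called difference between lines. Rps20, Rps9 and Rpl3 lie farthest to the left, at -0.61, -0.56 and -0.53 in E0771.

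Across the 76 genes the lean against obese values of the lines had a Pearson correlation of 0.31 and a Spearman correlation of 0.33. The genes are not independent replicates, and all values of a line share the same 6 libraries. Within a line, the decrease followed neither transcript length (Spearman -0.10 in E0771 and -0.02 in NMuMG) nor mean CPM (0.03 and -0.10) closely. Genes with a pyrimidine run at the annotated start (27) had a median of -0.27 in E0771 and -0.18 in NMuMG, and the 29 without one medians of -0.26 and -0.20.

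The widest gaps between the lines exceeded any change between media. In control medium 51 of the 76 genes were lower in NMuMG than in E0771, where 37.1% of all genes tested were, and 16 were higher, where 43.4% were. The median was -0.20, against 0.08 over all genes tested. With library totals alone as the scale the median of the 76 moved to -0.31, while that of all genes moved to -0.03. Line and base medium cannot be told apart in this comparison.

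Rpl29 showed the widest gap of the 76: it stood at 563, 600.4 and 623 CPM in E0771 control libraries and at 95.8, 98.4 and 92.9 CPM in those of NMuMG, 5.76-fold lower. Rpl26, which binds p53 mRNA as well as the ribosome, was at 714, 757 and 813 CPM against 246, 244 and 238 CPM, 2.91-fold lower, and Rpl13 at 2379.9, 2390.1 and 2495 CPM against 798, 819.7 and 781 CPM, 2.80-fold lower. Their adjusted p-values were 1.76e-35, 1.58e-32 and 6.59e-35. In the other direction Rpl39, which lines the exit tunnel, stood at 134, 136 and 135 CPM in E0771 and 263, 244 and 251 CPM in NMuMG, 2.02-fold higher. Rpsa was 1.43-fold and Rps9 1.33-fold higher in NMuMG, with adjusted p-values of 3.02e-25, 8.22e-18 and 5.51e-13 for the 3 genes. Many ribosomal protein genes have processed pseudogenes that take or lose reads, and how reads with several matches were counted is not given in the sources used here. Named pseudogenes held 0.399% to 0.607% of the counts of the 76 genes in a library.

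Per length of the annotated principal transcript, control levels in E0771 ran from 113 to 3105 CPM per kb, with a median of 943, and in NMuMG from 98.4 to 2061, with a median of 725. For 5 genes without a transcript tagged as principal, another annotated protein-coding transcript was used. Where a gene had several such transcripts, the shortest was taken. Rpl13 led in E0771 at 3105 ± 81.5 CPM per kb (SD, n = 3) and ranked 18 in NMuMG at 1025 ± 24.6. Rps2, at the mRNA entry, was first in NMuMG at 2061 ± 52.9 and second in E0771 at 2416 ± 85.5. Rplp1 at 2049 ± 63.7 was next in NMuMG, and these 2 do not differ beyond their spread. Rps20 was last in both lines, at 113 ± 4.94 and 98.4 ± 1.28, a value that rests on an annotated transcript of 3706 nt, the longest of the 76 against a median of 681 nt. Rpl24 was among the lowest too, at 218 ± 5.49 in E0771 and 237 ± 5.98 in NMuMG.

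**Figure D4:**
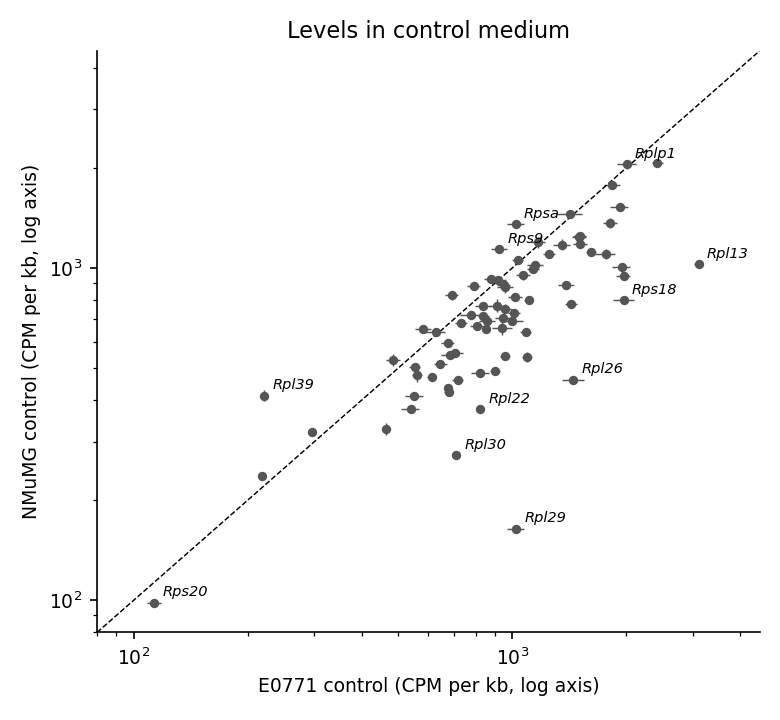
Level of each of the 76 genes in control medium, as CPM per kb of annotated transcript on log axes, in E0771 (horizontal) and NMuMG (vertical); points are means and bars the SD (n = 3), and the dashed line marks equal levels. Rpl29, Rpl26 and Rpl13 lie below the line and Rpl39 above it.

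Genes close to the ribosome but outside the symbol rule were counted from lists. Their counts for lean against obese stand against 25.8% higher and 26.9% lower over all genes tested in E0771, and 17.6% higher and 17.4% lower in NMuMG. Among ribosomal paralogs and fusion genes, E0771 had 5 lower and 1 higher of 8 tested with lean against obese, and NMuMG 4 lower and 0 higher of 9. Rpl22l1, the paralog whose mRNA Rpl22 protein represses, was at -0.70 (SE 0.08, adjusted p = 9.04e-08) in E0771 and -0.18 (SE 0.04, adjusted p = 0.000901) in NMuMG. Fau, which encodes a ubiquitin-like fusion with a small subunit protein, was at -0.22 (adjusted p = 1.68e-05) and -0.11 (adjusted p = 0.00804), and Rack1, the scaffold on the small subunit head, at -0.19 (adjusted p = 9.41e-05) and -0.14 (adjusted p = 0.000431).

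Of 18 other mRNAs with TOP tracts, mostly translation factors, 12 were lower and 1 higher in E0771 (median -0.13), and 14 were lower and none higher in NMuMG (median -0.14). Elongation factor Eef2 changed by -0.33 (adjusted p = 4.84e-09) in E0771 and -0.13 (adjusted p = 0.000503) in NMuMG, and poly(A)-binding Pabpc1 by -0.10 (adjusted p = 0.0161) and -0.24 (adjusted p = 1.78e-08). The list also holds Vim, an intermediate filament gene, at -0.51 (adjusted p = 8.43e-11) in E0771, and the splicing factor Hnrnpa1, at -0.46 (adjusted p = 5.41e-10) and -0.35 (adjusted p = 8.08e-11). Of 28 other initiation factors, 17 were higher and 3 lower in E0771 (median 0.13), and 1 was higher and 14 were lower in NMuMG (median -0.08).

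Ribosome biogenesis factors, which process ribosomal RNA and assemble the subunits, did not follow the ribosomal proteins in E0771. Of 83 tested, 72 were higher and 3 lower with lean than with obese secretome (median 0.34), where 25.8% and 26.9% of all genes tested were. Utp4, of the small subunit processome, was at 0.92 (SE 0.04, adjusted p = 9.19e-14), the helicase gene Ddx18 at 0.57 (SE 0.04, adjusted p = 4.67e-11), and nucleolin (Ncl) at 0.39 (SE 0.03, adjusted p = 1.63e-09). In NMuMG 5 were higher and 26 lower (median -0.06), where 17.6% and 17.4% of all genes tested were, with Ubtf, a factor of RNA polymerase I transcription, at -0.52 (SE 0.04, adjusted p = 1.48e-11) and Ncl at -0.29 (SE 0.03, adjusted p = 5e-09). Against control medium, NMuMG had 26 of the 83 higher and 9 lower with lean secretome (median 0.05). Of all 15014 genes tested, 2864 were higher and 2867 lower. With obese secretome 21 were higher and 0 lower than in control (median 0.11), where 352 and 400 of all genes were. The interaction test for lean against obese called 74 of the 83 lower in NMuMG than in E0771, and 1 higher. Of all genes tested, 18.8% were called lower and 15.5% higher.

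Of 7 chaperones that escort ribosomal proteins, 4 were higher and 0 lower in E0771, and 1 was higher and 4 were lower in NMuMG. For lean against control in NMuMG, 3 of the 7 were higher and 2 lower, where 2864 and 2867 of all 15014 genes tested were. Grwd1, a chaperone of Rpl3, was at 0.48 (SE 0.04, adjusted p = 3.88e-09) in E0771 for lean against obese. In NMuMG it was at -0.17 (SE 0.04, adjusted p = 0.0012) for the same comparison. Of 78 mitochondrial ribosomal protein genes, which serve a separate ribosome, 27 were higher and 16 lower in E0771 and 6 higher and 8 lower in NMuMG, with medians of 0.05 and -0.03. The NMuMG counts are below the shares over all genes tested (17.6% and 17.4%) in both directions. Of the host genes of small nucleolar RNAs with TOP tracts, 10 in all, 2 were higher and 2 lower in E0771, and 0 higher and 5 lower in NMuMG, with Gas5 at 0.10 (adjusted p = 0.0589) and -0.25 (adjusted p = 3.09e-06).

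Among regulators of these mRNAs, 5 were higher and 10 lower of 21 tested in E0771, and 6 higher and 6 lower of 23 in NMuMG. The 5 higher in E0771 are near the share over all genes (25.8%), and do not set the list apart. Myc, a transcription factor of ribosome genes, was higher with lean secretome in both lines, at 0.24 (SE 0.04, adjusted p = 2.66e-05) in E0771 and 0.34 (SE 0.04, adjusted p = 5.58e-09) in NMuMG. Larp1 was at 0.09 (adjusted p = 0.0313) in E0771 and -0.10 (adjusted p = 0.0129) in NMuMG. Sesn2, an inhibitor of mTORC1 under amino acid shortage, was at -0.96 (SE 0.07, adjusted p = 6.19e-11) in E0771 and 0.25 (SE 0.05, adjusted p = 0.000197) in NMuMG.

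**Figure D5:**
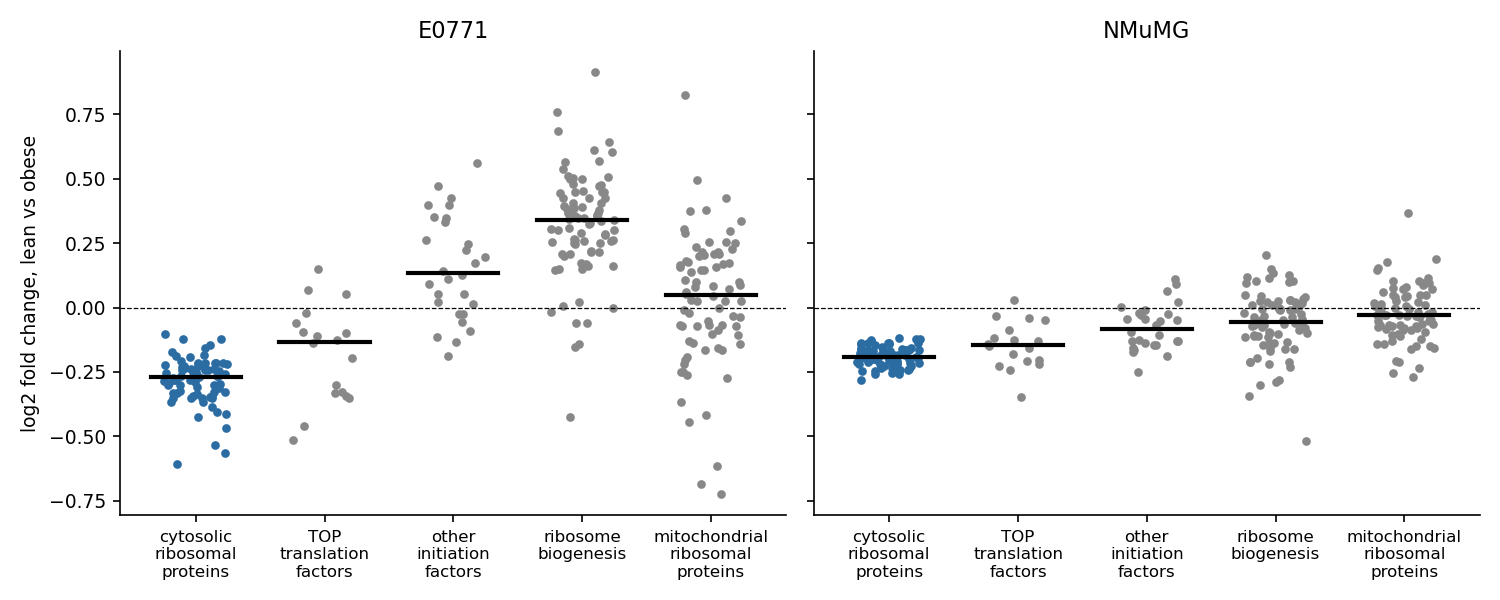
Log2 fold changes for lean against obese secretome (vertical axis) of the 76 cytosolic ribosomal protein genes and of 4 other lists, in E0771 and NMuMG; each point is a gene, spread sideways for visibility, and the black line is the median. In E0771 the ribosomal protein median is -0.27 and that of ribosome biogenesis factors 0.34, while in NMuMG they are -0.19 and -0.06.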

How the data were processed

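The deposited table gives read counts per Ensembl gene for the mouse libraries. Per the submitters' processing notes, the tools were cutadapt 1.16, STAR 2.7.9a and featureCounts 1.6.3 and the build was GRCm39. Per the labels' protocols, libraries were stranded poly(A) libraries. How the authors set strand and multiple matches is not given in the sources used here. Symbols for 52073 of 56980 identifiers, with 99.7% of counts, came from a GENCODE table of another build, used for names and transcript lengths only.

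Counts were filtered (filterByExpr), scaled by TMM and fitted with edgeR 4.0.16 (robust quasi-likelihood, limma 3.58.1, R 4.3.3): 9 libraries within each line, all 18 for interactions and the comparison of lines. P-values were adjusted over all genes tested and called under 0.05. CPM values divide by library totals, and the check for non-overlap used TMM-scaled CPM. Precision rests on 3 libraries per group. The procedure was also run on simulated counts, with changes planted in genes drawn at random and in random directions. That setting holds no joint fall of a gene class, and no result given here rests on it. Alternatives were DESeq2 1.42.0, other scalings, no filter, a replicate block, stricter calls, pseudogenes added to parents, and each library left out. Same-numbered libraries did not deviate together (correlations -0.09 to 0.11), so the numbers were not used as pairs. Named genes were the 3 strongest called rises and falls per comparison, the 5 highest and 5 lowest by mean CPM, and 16 with particular roles; other lists gave up to 3 examples with the smallest adjusted p, and further list genes were picked after their values were seen. Members and lists were chosen with earlier results of these data known. Values of a few single genes are not reported here. Libraries of SkBr3, a human line, were not analysed here.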

Additional observations from a re-analysis of the deposited data

Results flagged for a closer look

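Genes named in the report whose response to lean secretome differed between lines by the interaction test are listed with their values, as NMuMG minus E0771 on the log2 scale, where a positive value is a smaller decrease in NMuMG. For lean against obese secretome these were Rps20 at 0.36, Rpl3 at 0.33, Rps9 at 0.31, Rpl13a at 0.23 and Rpl4 at 0.17. For lean against control medium they were Rps20 at 0.46, Rpl3 at 0.40, Rps9 at 0.37, Rpl13a at 0.27, Rpl4 at 0.22, Rps6 at 0.13, Rplp1 at 0.13 and Rplp0 at 0.12. The adjusted p-values ran from 1.07e-09 for Rps20 to 0.0376 for Rplp1, both against control. The calls of Rps6, Rplp0 and Rplp1 were each lost on leaving out some single libraries, among them E0771 control replicate 3 for all 3 genes. With groups of 3 libraries, no test for single outlying libraries was made. In the E0771 lean group replicate 3 stood apart, with a chi-square per degree of freedom of 8.34 against replicate 1 and 8.1 against replicate 2. Between replicates 1 and 2 it was 2.27. Leaving out lean replicate 3 gave a median of -0.26 for lean against obese in E0771.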

How the results depend on the processing

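No called value of a ribosomal protein gene that met the naming rule reversed under the alternatives tried. The median for obese against control in E0771, where no gene was called, changed sign, running from -0.04 to 0.03 with single libraries left out. For obese against control in NMuMG the 2 calls became 0 at an adjusted p under 0.01, 0 with library totals alone and 0 to 2 when single libraries were left out; with library totals alone, 35.8% of all calls in that comparison were higher, against 46.8%. For the difference between lines in lean against obese, the 17 calls became 10 at an adjusted p under 0.01, 37 with scaling factors computed without the 76 genes, and 12 to 21 with single libraries left out. For lean against control the 26 calls became 17, 49 and 18 to 40. With scaling factors computed without the 76 genes, calls over all genes tested moved too, as given above. The number of all genes called at an adjusted p under 0.01 was not computed. The median of the comparison of lines in control medium moved from -0.20 to -0.31 with library totals alone. The cause of these shifts was not tested. Leaving out single libraries gave 75 to 76 calls for lean against obese in each line, 75 to 76 for lean against control in E0771, 64 to 73 in NMuMG, and 62 to 68 between lines, and left 0 for obese against control in E0771 and for its difference between lines. Of 3200 recomputed values of genes that met the naming rule, 86 lost their call.

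With the replicate number as a block, counts of calls were 75 (E0771 lean against obese, Rpl24 lost), 76 (lean against control), 76 and 73 in NMuMG, 1 for NMuMG obese against control, 15 and 25 for the differences between lines, and 61 between lines; the labels' numbers did not pair the libraries, and no other call was affected beyond these counts. Whether depth or the 3 libraries per group limits the calls was not tested.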
